A study of Homo sapiens with 6 samples.

Results

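The genes of 3 routes by which a cell senses or diverts glucose were followed in ARPE-19, a human cell line from retinal pigment epithelium, held in high glucose with and without extra PDZK1. The 10 genes were chosen by name and by route, by a rule that uses no measured value, though earlier results of these data were known when it was made. They are the glucose sensors MLXIP and MLXIPL and their targets TXNIP and ARRDC4, the polyol enzymes AKR1B1 and SORD, and the hexosamine and O-GlcNAc enzymes GFPT1, GFPT2, OGT and OGA. All 10 are among the 20461 Ensembl genes of the tables, and 8 of them had enough reads to be among the 13645 genes tested. Their RNA levels were measured by RNA-seq of bulk cultures.

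The control group carried a control lentivirus and the PDZK1 group one for overexpression of PDZK1, whose PDZ domains hold membrane proteins together. Both groups were transduced at a multiplicity of infection of 10, selected with 4 µg/ml puromycin and then kept in 37.5 mM glucose for 48 h. Each group had 3 libraries, and nothing in the labels says that they came from separate cultures, so p-values measure the spread between these samples, which may be technical. Both groups were in high glucose and no library at normal glucose was analysed here, so the comparison is of PDZK1 overexpression within high glucose and not of glucose itself. In bulk RNA, fewer cells that use a gene and less RNA of it per cell cannot be told apart.

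MondoA (gene MLXIP) and ChREBP (gene MLXIPL) are transcription factors that pair with MLX, are activated when glucose 6-phosphate accumulates, and drive TXNIP and ARRDC4. These encode alpha-arrestins that lower glucose uptake, and TXNIP also binds and restrains thioredoxin. In the polyol route aldose reductase (AKR1B1) reduces excess glucose to sorbitol, which sorbitol dehydrogenase (SORD) oxidises to fructose, and sorbitol build-up in ocular tissue is a textbook feature of diabetes. In the hexosamine route GFPT1 and GFPT2 catalyse the rate-limiting step toward UDP-GlcNAc, from which OGT places O-GlcNAc on nuclear and cytosolic proteins and OGA removes it.

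The promoters of TXNIP and ARRDC4 are shown because these genes are the sensors' targets and ARRDC4 is the member that passed the test. Each line is the 250 bases before the RefSeq start, 5′ to 3′ in the direction of the gene, from GRCh38.p14. TXNIP is chr1:145996580-145996829 on the minus strand and ARRDC4 is chr15:97960453-97960702 on the plus strand. Capitals mark matches to one of 2 motifs searched on both strands: CACGTG, the canonical E-box, and CACNNG, any 5 bases, CACNNG, the paired arrangement that MLX complexes are known to bind.
TXNIP: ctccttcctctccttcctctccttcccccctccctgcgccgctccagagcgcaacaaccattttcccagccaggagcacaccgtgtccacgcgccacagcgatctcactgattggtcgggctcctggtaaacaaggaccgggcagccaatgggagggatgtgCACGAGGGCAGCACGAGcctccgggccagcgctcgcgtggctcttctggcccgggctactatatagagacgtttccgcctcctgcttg
ARRDC4: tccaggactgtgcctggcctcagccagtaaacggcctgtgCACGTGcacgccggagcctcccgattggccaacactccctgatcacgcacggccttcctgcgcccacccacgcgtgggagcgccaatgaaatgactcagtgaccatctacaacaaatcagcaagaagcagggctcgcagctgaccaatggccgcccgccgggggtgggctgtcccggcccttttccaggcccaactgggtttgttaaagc
The paired arrangement stood at bases -88 to -72 of TXNIP, counted from the start. It was not matched in this window of ARRDC4, which instead held CACGTG at -210 to -205. Of 35116 RefSeq promoters of this length, 276 (0.786%) held the paired arrangement and 2228 (6.34%) held CACGTG. Promoters of 9 of the 10 genes were found, all but SORD. The paired arrangement was also present in GFPT1, at -106 to -90 on the opposite strand, and in MLXIPL, at -149 to -133. CACGTG was in no other of the 9. A match is a description of letters and not of binding.

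Total counts were 27970618 to 32804567 per library, so that 3 counts, the floor used here, stood for 0.0915 to 0.109 CPM (counts scaled to library size). The introduced gene followed the labels: PDZK1 had 19, 18 and 23 counts in controls against 3020, 2541 and 2828 with the PDZK1 lentivirus, a log2 fold change of 7.03 (SE 0.131, edgeR adjusted p = 8.165e-09). Control replicate 3 stood apart from the other controls on the second principal component, at -29.99 against 14.45 and 18.79, and calls that change without it are given beside the gene. Of 13 markers of retinal pigment epithelium, RPE65, TYR and TTR were at 3 counts or fewer in every library, while KRT8, OTX2 and MITF were present. Others were low, with DCT at 0 to 4 counts. RLBP1 lay at 3.08 to 5.18, PMEL at 1.89 to 3.11, TYRP1 at 0.971 to 1.96 and SERPINF1 at 0.366 to 1.38 CPM. The summed level of the list was 1911 to 2150 CPM in control and 1968 to 2437 in PDZK1 libraries, most of it from the general epithelial keratins KRT8 and KRT18. The highest sum held BEST1 of PDZK1 replicate 1, at 357.6 CPM against 4.32 to 5.60 in the other libraries. Fibroblast markers summed to 67.9 to 81.1 CPM in control and 82.1 to 89.9 in PDZK1 libraries, most of it PDGFRB, with COL1A2 at 0 in all. Photoreceptor markers summed to 0.689 to 1.65 and 0.593 to 1.48 CPM, with CRX at 0. Endothelial markers summed to 5.11 to 5.37 and 3.94 to 4.40 CPM, with CDH5 at 0. Most of it was KDR, at 4.80 to 5.11 CPM in control and 3.37 to 3.71 in PDZK1 libraries. Immune markers summed to 131 to 160 and 123 to 126 CPM, all of it CD68, with PTPRC and AIF1 at 0. The part of these marker differences in the results was not tested.

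Per unit of transcript length, as FPKM (fragments corrected for how long the transcript is and how many fragments the library mapped), AKR1B1 was by far the most abundant of the 10 genes. Its mean over the 6 libraries was 656 FPKM, the 56th highest of all 20461 genes and 14.0 times the next member. OGA at 46.9 and OGT at 43.5 FPKM followed with overlapping ranges. GFPT1 stood at 16.3 FPKM. MLXIP at 5.84 and SORD at 5.12 overlapped, as did ARRDC4 at 1.59 and TXNIP at 1.21. MLXIPL at 0.0950 and GFPT2 at 0.0751 FPKM, also overlapping, were close to the floor. The polyol and hexosamine routes thus each had an abundant member, while the highest of the sensing route, MLXIP, ranked 8161 of the 20461 genes. The second sensor and the second GFPT gene were nearly silent.

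**Figure D1:**
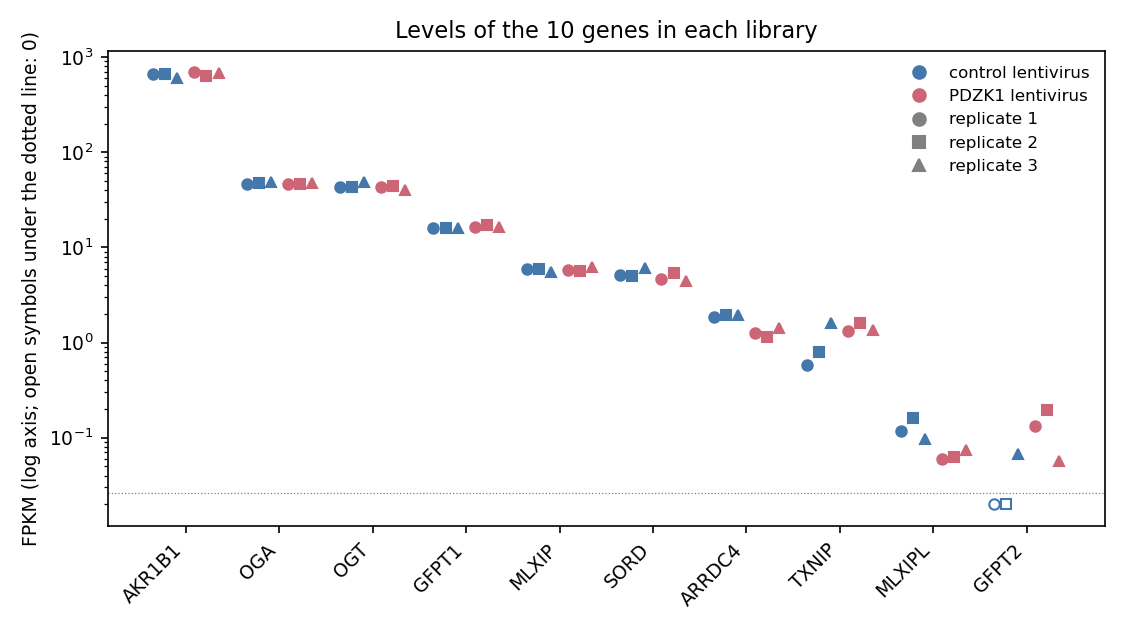
FPKM of the 10 genes in each library on a log axis, with 3 control (blue) and 3 PDZK1 (red) libraries per gene, ordered by mean level. AKR1B1 lies near 656 FPKM and MLXIPL and GFPT2 lie near 0.1, and the red and blue points do not overlap in FPKM for ARRDC4, MLXIPL and, by less than the width of a symbol, GFPT1.

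Of the 8 members tested, 1 passed the threshold of an edgeR adjusted p under 0.05 (ARRDC4, lower) and 7 did not. Over all genes tested 522 passed, which is 3.83%, with 193 higher and 329 lower. An unadjusted edgeR p under 0.05 was found for 1 of the 8 and for 2388 of the 13645. The median log2 fold change of the 8 was 0.0024, against -0.0003 for all genes, and the median absolute value was 0.0542 against 0.0849. The groups did not overlap in CPM for 1 of the 8, again ARRDC4, while they did not overlap for 23.9% of all genes. For 6 members (MLXIP, AKR1B1, SORD, GFPT1, OGT and OGA) the 95% interval of the fold change lay within 1.5-fold in either direction. A change larger than that was therefore outside their intervals, and for TXNIP it was not.

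**Figure D2:**
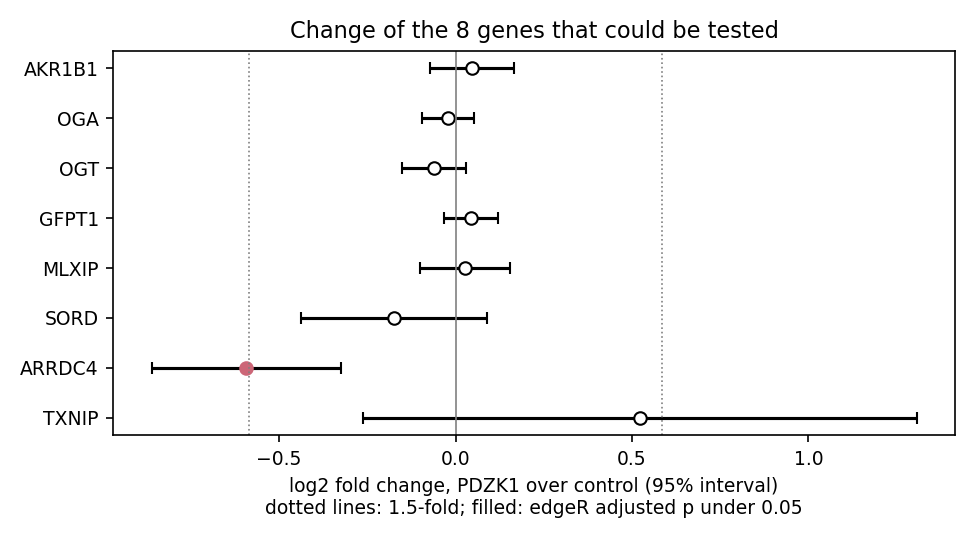
Log2 fold change of PDZK1 over control for the 8 genes tested, with 95% intervals from edgeR, ordered by level from AKR1B1 down to TXNIP. ARRDC4 (filled, -0.59) is the one gene past the threshold, 6 intervals lie between the dotted 1.5-fold lines, and the interval of TXNIP runs from -0.26 to 1.31.

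The sensors themselves gave no change past the threshold. MLXIP (ENSG00000175727, chr12:122078722-122147347, plus strand), the more abundant sensor, measured 52.6, 53.3 and 48.7 CPM in control libraries and 51.9, 50.6 and 54.9 CPM in PDZK1 libraries. The groups overlapped, and MLXIP gave a log2 fold change of 0.03 (SE 0.0568, 95% interval -0.10 to 0.15, adjusted p = 0.862). MLXIPL (ENSG00000009950, chr7:73593194-73624543, minus strand), the sensor best known from liver and fat, had 14, 18 and 3 counts in control and 7, 8 and 9 in PDZK1 libraries. It did not pass the filter on low counts. Without the filter its log2 fold change was -0.59 (edgeR adjusted p = 0.741), and without control replicate 3 it was -1.02 (adjusted p = 0.296). In FPKM control replicate 3 read 0.0959 for its 3 counts, close to the 0.117 FPKM that 14 counts gave in control replicate 1, so the deposited FPKM and counts did not move together for this gene.

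ARRDC4 (ENSG00000140450, chr15:97960698-97973838, plus strand) fell. It measured 8.14, 8.64 and 8.55 CPM in control libraries, from 263, 267 and 236 counts, and 5.59, 5.03 and 6.18 CPM in PDZK1 libraries, from 179, 165 and 196 counts. All 3 PDZK1 libraries lay under all 3 controls. The means were 8.45 ± 0.268 and 5.60 ± 0.573 CPM (SD, n = 3), a log2 fold change of -0.59 (SE 0.120, 95% interval -0.86 to -0.32) or 0.663-fold, with an edgeR adjusted p = 0.0272. The direction held in all 15 alternative analyses, with log2 values from -0.67 to -0.36, and the call in 6 of them. It was lost with the replicate block (adjusted p = 0.107), kept without control replicate 3 (adjusted p = 0.0335) and lost without any other single library, with adjusted p = 0.0736 and 0.121 without control replicates 1 and 2 and 0.108, 0.0842 and 0.0549 without PDZK1 replicates 1, 2 and 3.

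TXNIP (ENSG00000265972, chr1:145992435-145996600, minus strand) varied more between control libraries than any other of the 8 members tested. It measured 1.86, 2.53 and 5.00 CPM in control libraries, from 60, 78 and 138 counts, and 4.12, 5.03 and 4.26 CPM in PDZK1 libraries, from 132, 165 and 135 counts. Controls 1 and 2 were the lowest of the 6 libraries, while control 3 came just under the top PDZK1 value, so the groups overlapped. The means were 3.13 ± 1.66 and 4.47 ± 0.494 CPM (SD, n = 3), with coefficients of variation of 53.0% and 11.0%. On the log2 scale the fold change was 0.52 (SE 0.338, 95% interval -0.26 to 1.31, adjusted p = 0.489), which did not pass the threshold.

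That outcome changed when control replicate 3 was left out. Its TXNIP level was 2.28 times the mean of the other controls, and 2.02% of the genes tested lay at least as far from those 2 libraries in it. Without control replicate 3 the log2 fold change of TXNIP was 1.03 (adjusted p = 0.0198). TXNIP and ARRDC4 passed in that analysis, in which 6.32% of all genes did (875 of 13844), and so did GFPT2, which entered it only through its counts in the PDZK1 libraries. Without any 1 of the other libraries the TXNIP value was 0.25 to 0.58, with adjusted p up to 0.745. Control replicate 3 was the farthest of its group from the group's mean in 6 of the 8 members tested, as it was for 47.7% of all genes, and PDZK1 replicate 2 likewise in 6 of 8, against 41.3%.

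**Figure D3:**
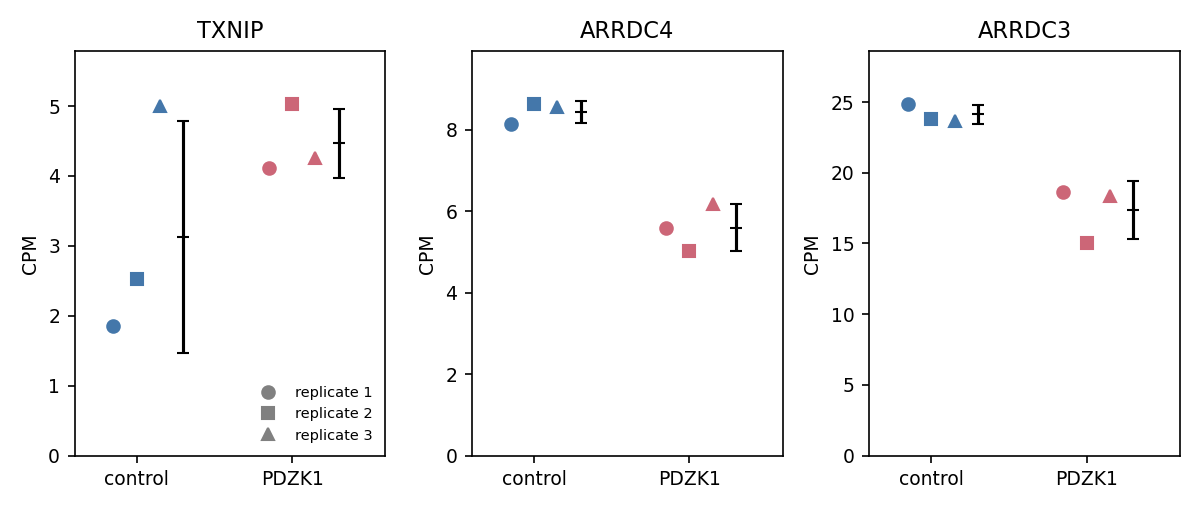
CPM of the alpha-arrestin genes TXNIP, ARRDC4 and ARRDC3 in each library, with mean and SD (n = 3) as bars beside the points and axes from 0. ARRDC4 and ARRDC3 separate the groups, whereas the control replicate 3 triangle of TXNIP stands at 5.00 CPM among the PDZK1 libraries.

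Relative to ARRDC4, TXNIP stood higher in every PDZK1 library than in any control. The ratio of TXNIP to ARRDC4 in FPKM was 0.314, 0.407 and 0.834 in control libraries and 1.06, 1.41 and 0.962 in PDZK1 libraries. All 3 control ratios lay under 1, as did PDZK1 replicate 3. The mean log2 ratio was 1.25 higher in the PDZK1 group (exact two-sided permutation test, p = 0.1, adjusted over 4 ratios p = 0.2). With 3 libraries against 3, 0.1 is the smallest p this test can give, so the ratio could not have passed. The difference was 1.66 without control replicate 3 and 0.95 to 1.36 without any other library.

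The genes whose pattern was most like that of ARRDC4 were sought among 11100 genes with at least 5 CPM on average, by the mean absolute difference of log2 CPM deviations over the 6 libraries. The nearest was PPARG, the lipid-sensing nuclear receptor, at a distance of 0.0640. It measured 14.7, 15.1 and 15.9 CPM in control and 11.1, 10.2 and 11.8 in PDZK1 libraries. The next were FAM174B, at 0.0667, and ARRDC3, another alpha-arrestin, at 0.0695. TXNIP, at means of 3.13 CPM in control and 4.47 CPM in PDZK1 libraries, lay under that minimum and was not ranked, nor were MLXIPL and GFPT2. Of the members ranked, the nearest were SORD, ranked 1864, and OGT, ranked 2926 of the 11100. These likenesses describe 6 libraries and were picked on the same values, so no test belongs to them.

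TXNIP lies close to the endogenous PDZK1 gene on chromosome 1, with 284.3 kb between them. GENCODE lists 18 genes in that gap, 13 of them protein-coding, and 11 were tested. None passed by edgeR or by DESeq2 and 1 (RNF115, a ubiquitin ligase, at 0.15) had an unadjusted p under 0.05. Their log2 fold changes ran from -0.18 for POLR3GL, an RNA polymerase III subunit, to 0.31 for ITGA10, a collagen-binding integrin, with 8 above and 3 below 0.

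In the polyol route neither enzyme passed the threshold. AKR1B1 (ENSG00000085662, chr7:134442350-134459284, minus strand) measured 996, 990 and 898 CPM in control and 1021, 937 and 1021 CPM in PDZK1 libraries. The means of 961 ± 55.0 and 993 ± 48.5 CPM (SD, n = 3) differed by 0.05 on the log2 scale (SE 0.0527, 95% interval -0.07 to 0.17, adjusted p = 0.718). With at least 24774 counts in every library, spread between libraries and not depth limited this value. The annotation names 7 pseudogene copies of AKR1B1, and how reads were shared with them is not given in the sources used here.

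SORD (ENSG00000140263, chr15:45023104-45077185, plus strand) measured 24.7, 25.1 and 30.9 CPM in control and 23.6, 26.9 and 20.9 CPM in PDZK1 libraries. PDZK1 replicate 2 lay above 2 of the controls, so the groups overlapped. On the log2 scale the fold change was -0.17 (SE 0.115, 95% interval -0.44 to 0.09, adjusted p = 0.495). SORD has a near-identical pseudogene, SORD2P, so its counts are uncertain. The ratio of AKR1B1 to SORD in FPKM was 132, 130 and 99.0 in control and 147, 115 and 157 in PDZK1 libraries (log2 difference 0.22, exact two-sided permutation p = 0.4). With 1 library left out that difference ran from 0.08 (without control replicate 3) to 0.35 (without PDZK1 replicate 2). The deposited FPKM of the first enzyme was thus at least 99.0 times that of the second in every library, with the sharing of pseudogene reads unknown.

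In the hexosamine route GFPT1 (ENSG00000198380, chr2:69319769-69387254, minus strand) measured 148, 150 and 152 CPM in control and 151, 160 and 153 CPM in PDZK1 libraries. The lowest PDZK1 library lay just within the controls. The log2 fold change of 0.04 had the narrow 95% interval of -0.03 to 0.12 (SE 0.0340, adjusted p = 0.566).

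GFPT2 (ENSG00000131459, chr5:180300690-180353387, minus strand), a paralog of GFPT1 with a narrower range of tissues, had 0, 0 and 7 counts in control and 14, 22 and 6 in PDZK1 libraries. Control 3 again lay among the PDZK1 libraries. GFPT2 did not pass the filter on low counts, and without the filter it did not pass the threshold by edgeR (adjusted p = 0.365) or DESeq2 (adjusted p = 0.389). Without control replicate 3 both remaining controls were at 0, so that GFPT2 passed the filter through the PDZK1 group alone and its call there is no support. For those 2 controls alone, the mean PDZK1 level was 4.55 times the floor of 3 counts per library. Control replicate 3, at 0.254 CPM, is outside that comparison and lay above PDZK1 replicate 3, at 0.189 CPM. A count of 0 allows up to 0.0929 and 0.0971 CPM in controls 1 and 2, for counting error only. At 6 to 22 counts per PDZK1 library the level remained under 0.7 CPM.

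The enzymes that write and erase O-GlcNAc were both abundant and nearly level. OGT (ENSG00000147162, chrX:71533083-71575897, plus strand) measured 267, 264 and 284 CPM in control and 259, 270 and 253 CPM in PDZK1 libraries (log2 fold change -0.06, SE 0.0407, 95% interval -0.15 to 0.03, adjusted p = 0.492). OGA (ENSG00000198408, chr10:101784443-101818465, minus strand) measured 255, 260 and 266 CPM in control and 256, 256 and 259 CPM in PDZK1 libraries (log2 fold change -0.02, SE 0.0327, 95% interval -0.10 to 0.05, adjusted p = 0.796). Both pairs of groups overlapped. The ratio of OGT to OGA in FPKM lay between 0.852 and 1.00 in all 6 libraries, with a log2 difference between groups of -0.07 (exact two-sided permutation p = 0.4), which ran from -0.10 without PDZK1 replicate 2 to -0.03 without PDZK1 replicate 3 or control replicate 3.

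**Figure D4:**
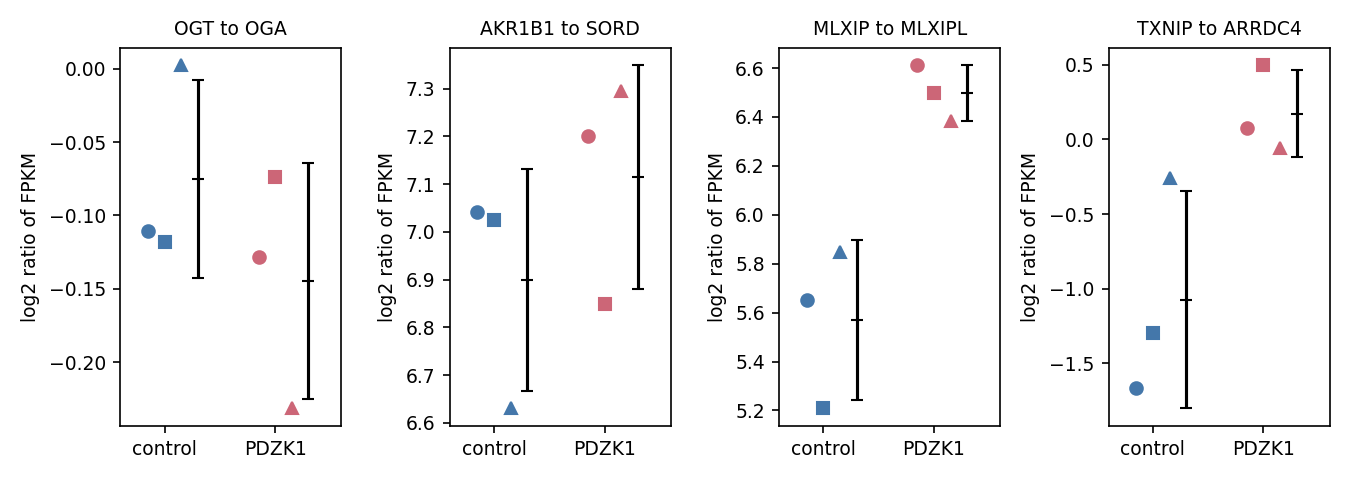
Log2 ratio of FPKM of paired members in each library, control (blue) and PDZK1 (red), with mean and SD (n = 3) beside the points and a separate axis for each pair that does not start at 0. The OGT to OGA and AKR1B1 to SORD ratios overlap between groups, and the MLXIP to MLXIPL and TXNIP to ARRDC4 ratios do not.

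The ratio of MLXIP to MLXIPL in FPKM was 50.3, 37.0 and 57.6 in control and 97.8, 90.4 and 83.4 in PDZK1 libraries (log2 difference 0.93, exact two-sided permutation p = 0.1, adjusted p = 0.2). This ratio rests on the 3 to 18 counts of MLXIPL, and from CPM the difference was 0.31. The ratio of GFPT1 to GFPT2 was not computed, because GFPT2 was at 0 in 2 libraries.

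The other genes of these routes were followed in 12 lists. Of their 94 genes, 76 were tested and 6 passed (7.89%, against 3.83% of all genes), 1 higher and 5 lower, with a median log2 fold change of 0.0006. The groups did not overlap for 18 of the 76, where 23.9% of all genes did not. Of the lists, 7 had no gene past the threshold by edgeR. Of their 44 tested genes, 4 had an unadjusted p under 0.05, as had 2388 of all 13645, and 1 was called by DESeq2 (TXNRD1).

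Hexokinases trap glucose in the cell as glucose 6-phosphate, the signal of MondoA. Of the 4 tested genes of this list, 2 passed the threshold and fell, where 3.83% of all genes passed. All 4 means were lower in the PDZK1 group, with a median log2 fold change of -0.18 against -0.0003 for all genes. HK2, the inducible hexokinase, measured 36.1, 38.9 and 36.8 CPM in control and 28.8, 28.6 and 28.3 CPM in PDZK1 libraries (log2 fold change -0.38, SE 0.0541, adjusted p = 0.00454, called in 15 of 15 alternatives). HKDC1, a hexokinase-like protein, measured 178, 172 and 186 against 147, 142 and 150 CPM (log2 fold change -0.29, SE 0.0399, adjusted p = 0.00403, called in 14 of 15). HK1, the constitutive form, had a log2 fold change of -0.08 (adjusted p = 0.21) and ADPGK one of -0.05 (adjusted p = 0.699). HK3 was at 0 counts throughout. HK2, HKDC1, ARRDC3 and PRKCA overlap annotated genes on the opposite strand, whose reads cannot be told apart without strand, and HK2 and PGD each have a named pseudogene.

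Of the 5 other arrestins tested, 1 passed, where 3.83% of all genes did. This was ARRDC3, which acts on beta-adrenergic receptors and was lower in the PDZK1 group. It measured 24.9, 23.8 and 23.7 CPM in control and 18.7, 15.01 and 18.4 CPM in PDZK1 libraries (log2 fold change -0.48, SE 0.0889, adjusted p = 0.0191, called in 7 of 15 alternatives). The call was lost without control replicates 1 or 2 (adjusted p = 0.0739 and 0.0857), without PDZK1 replicates 1 or 3 (0.0590 and 0.0609) and with the replicate block (0.0535). ARRDC2 had a log2 fold change of 0.33 (adjusted p = 0.0926), with all PDZK1 libraries above the controls. Of the alpha-arrestins ARRDC4 and ARRDC3 were thus lower, with calls kept in 6 and 7 of 15 alternatives. TXNIP and ARRDC2 had positive values that missed the threshold, and ARRDC1 stood at 0.0002 (edgeR adjusted p = 0.999).

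Of 9 further known targets of MondoA and ChREBP tested, 1 passed, where 3.83% of all genes did. A log2 fold change above 0 was found for 2 of the 9, and the median was -0.07. The gene that passed was PNPLA3, a lipid-droplet acylhydrolase, which rose. It measured 72.2, 68.1 and 66.9 CPM in control and 88.9, 91.1 and 97.7 CPM in PDZK1 libraries (log2 fold change 0.42, SE 0.0509, adjusted p = 0.00201, called in 15 of 15 alternatives). PNPLA3 overlaps SAMM50 on the same strand. The lipogenic targets FASN (-0.13, adjusted p = 0.751), SCD (-0.09, adjusted p = 0.82) and ACACA (-0.10, adjusted p = 0.475) were lowest in control replicate 3. So were ACLY (-0.006, adjusted p = 0.984) and ELOVL6 (-0.06, adjusted p = 0.759). Without that library, where 6.32% of all genes passed, ACLY and ELOVL6 still did not. FASN passed at -0.28 (adjusted p = 0.0112), SCD at -0.23 (adjusted p = 0.0178) and ACACA at -0.17 (adjusted p = 0.0181). MLX, the shared partner, had a log2 fold change of -0.06 (adjusted p = 0.586), and none of the 7 genes of its network passed by edgeR or DESeq2, with 0 at an unadjusted p under 0.05.

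**Figure D5:**
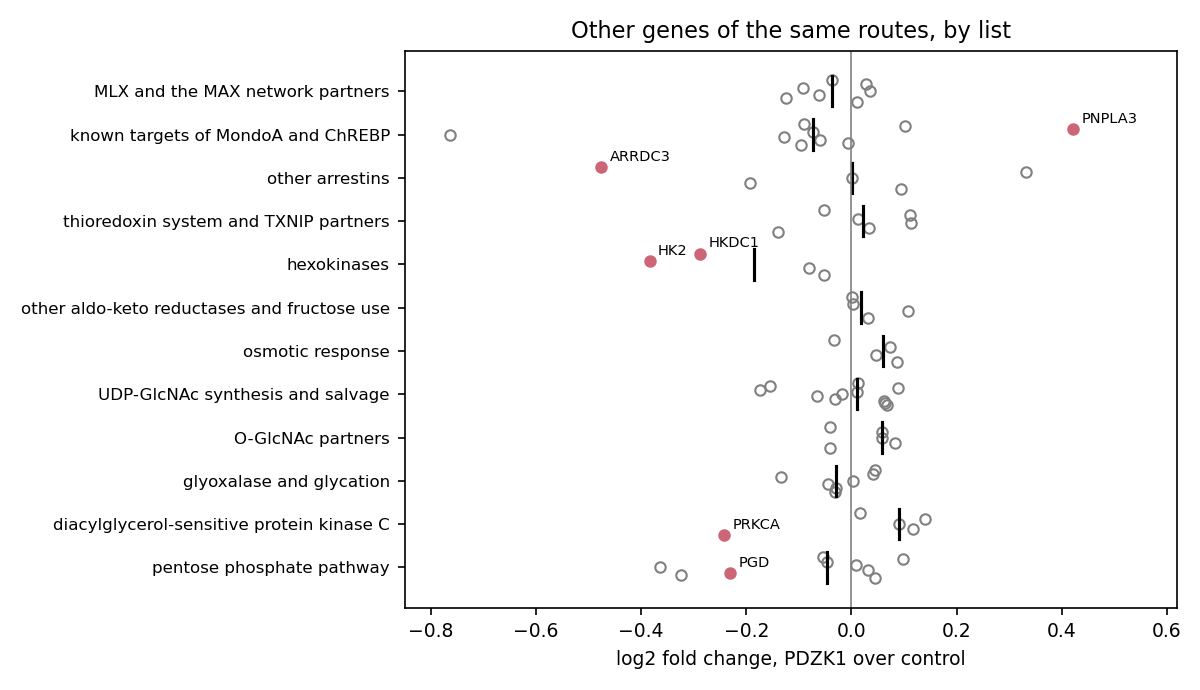
Log2 fold change of PDZK1 over control for the 76 other genes tested, in 12 lists, with a bar at each list's median and filled points for the 6 genes past the edgeR threshold. PNPLA3 lies to the right of 0, and ARRDC3, HK2, HKDC1, PRKCA and PGD lie to the left.

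Thioredoxin (TXN), the partner of TXNIP, had a log2 fold change of 0.11 (adjusted p = 0.263). Thioredoxin reductase TXNRD1, which keeps it reduced, had 0.11 as well (edgeR adjusted p = 0.134, DESeq2 adjusted p = 0.00381), with all PDZK1 libraries above the controls. None of the 11 genes of UDP-GlcNAc synthesis and salvage passed by edgeR or DESeq2, and 1 had an unadjusted p under 0.05. This was UAP1, which makes UDP-GlcNAc itself, at 170, 175 and 160 CPM in control and 151, 156 and 146 CPM in PDZK1 libraries (log2 fold change -0.16, adjusted p = 0.0804). Without control replicate 3, where 6.32% of all genes passed, UAP1 did so at -0.19 (edgeR adjusted p = 0.0127). Of the osmotic response none of the 4 tested genes passed by edgeR or DESeq2, with 0 at an unadjusted p under 0.05. When control replicate 3 was left out, 1 passed, the chaperone HSPA4L (0.16, edgeR adjusted p = 0.0352), as did 6.32% of all genes. The list includes NFAT5, the factor that drives AKR1B1 under osmotic stress, at 0.05 (adjusted p = 0.699), and the myo-inositol carrier SLC5A3, at 0.07 (adjusted p = 0.888). The 4 tested genes of the other aldo-keto reductases and fructose use gave 0 calls by edgeR and DESeq2 and 0 unadjusted p under 0.05, with ketohexokinase (KHK) at 0.00 (adjusted p = 0.994). The 5 O-GlcNAc partners tested likewise gave 0 calls by either tool and 0 unadjusted p under 0.05.

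Diversion to diacylglycerol and protein kinase C is a further branch of glucose injury. Of the 5 tested genes of this list, 1 passed the threshold, where 3.83% of all genes did. PRKCA measured 115, 113 and 124 CPM in control and 95.6, 105 and 96.5 CPM in PDZK1 libraries (log2 fold change -0.24, SE 0.0508, adjusted p = 0.0304, called in 7 of 15 alternatives). The call was lost without control replicates 1 or 2 (adjusted p = 0.0754 and 0.0882) and without PDZK1 replicates 1 or 3 (0.152 and 0.155), and with the replicate block (0.115). PRKCB, the isoform best known from diabetic retinopathy, was named after its values were seen. It had 10, 19 and 31 counts in control and 0 in all 3 PDZK1 libraries. It did not pass the filter on low counts, and without the filter it was called by edgeR (adjusted p = 0.0165) and by DESeq2 (adjusted p = 0.000107). As PRKCB was picked for these counts, its calls are no support. Its control mean of 0.683 ± 0.411 CPM (SD, n = 3) was 7.32 times the floor of 3 counts per library that the PDZK1 zeros allow.

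Of the 9 tested genes of the pentose phosphate pathway, 1 passed, where 3.83% of all genes did. This was PGD, an NADPH-producing dehydrogenase. It fell from 138, 147 and 145 CPM in control to 119, 121 and 127 CPM in PDZK1 libraries (log2 fold change -0.23, SE 0.0384, adjusted p = 0.011, called in 8 of 15 alternatives). Its call ended without control replicate 2 (adjusted p = 0.0775), PDZK1 replicate 1 (0.0833) or PDZK1 replicate 2 (0.0525) and with the replicate block (0.0535). H6PD, an NADPH-producing enzyme of the endoplasmic reticulum, had -0.32 (edgeR adjusted p = 0.0612, DESeq2 adjusted p = 0.00489). Without control replicate 3, where 6.32% of all genes passed, it had -0.39 (edgeR adjusted p = 0.0121). PGD and H6PD lie near each other on the short arm of chromosome 1, at chr1:10398592-10420144 and chr1:9234775-9271337. Of the glyoxalase and glycation list, glyoxalase GLO1 was the one gene with an unadjusted p under 0.05, at -0.13 (edgeR adjusted p = 0.0903), and 0 of its 7 genes were called by edgeR or DESeq2. Without control replicate 3 GLO1 passed, at -0.17 (edgeR adjusted p = 0.0112), as did 6.32% of all genes.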

How the data were processed

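Total RNA of 6 ARPE-19 libraries, 3 per group, was sequenced. Per the submitters' processing notes the authors used fastp 0.20.1 and HISAT2 2.2.1 with GRCh38. The counting program, annotation release and strandedness are not given in the sources used here. The deposited table of counts holds whole-number read counts per gene without depth scaling, and reads of near-identical genes may be shared or lost. The FPKM deposited by the authors scale by transcript length and mapped fragments. Each table has 3 columns that match no sample, which were not used. Of 21314 entries, 853 assembled loci were left out of the test and 20461 Ensembl genes kept. Coordinates are those of GENCODE release 29.

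Genes passing filterByExpr (minimum count 10) were tested with edgeR 4.0.16 in R 4.3.3 by the robust quasi-likelihood test after TMM scaling, without covariates, with Benjamini-Hochberg adjustment over all 13645 genes and a threshold of 0.05. CPM were computed from TMM-scaled library sizes. Errors are SD over n = 3 libraries or SE of the fit, and intervals are 95%. The common biological coefficient of variation was 0.0995. Floors of 3 counts cover counting error only, as reads carried no molecular identifiers that would make them independent molecules. Member ratios were tested by exact two-sided permutation in scipy 1.17.1. Of the fits, only the main edgeR test was run on simulated data with known fold changes, drawn with the same dispersion for all genes. Figures were drawn with matplotlib 3.10.9.

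The members, lists and tests were chosen with earlier results of these data known. The text names PDZK1, all 10 members, up to 5 list genes past the threshold per list and direction, the 3 genes most like a called member and the genes between PDZK1 and TXNIP, with further list genes named for their role or, for PRKCB, for its values. The alternatives were DESeq2 1.42.0, other size factors, other count filters, limma 3.58.1 with trend on log2(FPKM + 1) or log2(FPKM + 0.1), with or without a mean FPKM of at least 0.5, a replicate block, and leaving out each library. The numbers 1 to 3 of the replicates are not said to mark a shared culture, day or batch.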

Additional observations from a re-analysis of the deposited data

How the results depend on the processing

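PDZK1 kept its direction and call in all 15 alternatives, and each of the 8 members its direction in all, except MLXIP and AKR1B1. Those 2 values lay near 0, from -0.0129 to 0.0541 (MLXIP) and -4.74e-05 to 0.0893 (AKR1B1) with 1 library left out, and were negative without control replicate 3 (both) and without PDZK1 replicate 3 (MLXIP, -0.00695). The count of genes past the threshold, 522, was 814 by DESeq2, 191, 187 and 184 by limma on log2 FPKM (pseudocount 1, pseudocount 0.1, and 1 without the filter), and 181 to 875 with 1 library left out. Members past it, 1, were 0 in each of the 3 limma fits (ARRDC4 adjusted p = 0.0733, 0.0808 and 0.0764) and 0 to 3 with 1 library left out. The 3 include GFPT2, which entered that fit through the PDZK1 group alone, so its call is no support. List genes past it, 6, were 3, 3 and 2 in the limma fits and 3 to 13 with 1 library left out. The highest of each range came without control replicate 3. The cause of these differences was not tested.

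Same-numbered libraries did not deviate together (residual correlations -0.0462, -0.056 and -0.143), so the numbers were not taken to pair them. With the replicate block 163 genes, 0 members (ARRDC4 adjusted p = 0.107) and 3 list genes passed. Depth limits MLXIPL, GFPT2 and PRKCB, which had 0 to 31 counts per library.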
